A study of Homo sapiens with 16 samples.

Results

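The T5 dose series consists of the 6 RNA-seq libraries that carried the solvent DMSO or T5 at 0.5, 2, 5, 10 or 20 µM, chosen by their labels out of 16 libraries in the study. All came from U2OS, an established human osteosarcoma line, harvested 6 h after treatment, and the other 10 libraries carried T4 or CPT at the same 5 doses. The submitters describe T4 and T5 as modulators of APA, the choice among poly(A) sites at the end of a transcript. T4 and T5 are code names, and no structure is given here. Each dose is 1 library of 1 cell line, and whether they were grown apart is not stated. Every p-value below therefore rests on how single libraries scatter, which may be technical. That scatter is around a fitted line or curve over dose, or around a mean difference between compounds over matched doses.

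Most human genes can end their transcripts at more than 1 poly(A) site, and the cleavage and polyadenylation machinery, which works together with the elongating RNA polymerase, sets which is used. A transcript that lives only minutes disappears from a 6 h profile soon after its synthesis stops, whereas one that lives for days hardly moves. Immediate early genes such as FOS are brief transcripts that cells switch on within minutes of a stimulus, and mitotic genes such as AURKA are made in waves before division.

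Values are FPKM, fragments normalised to transcript length and to the mapped total, as deposited. Changes are on the log2(FPKM + 1) scale, which understates the change of low genes, and a "trend" is the fitted change from 0 to 20 µM along log2(1 + dose / 0.5 µM). Tests covered the 10600 genes whose mean FPKM over all 16 libraries was at least 1. CHRM4, with a mean of 0.999, lay just outside this limit and DNAJC16, with 1.00032, just inside it. The 6 libraries summed to between 238700 FPKM for DMSO and 285100 FPKM for 5 µM T5, and the 100 most abundant genes held 19.1% of that sum in DMSO and 29.95% at 5 µM. Depth is divided out of FPKM, but the steps between low values put the libraries at 0.64 (5 µM) to 0.9965 (0.5 µM) of the depth of DMSO. Of the bone and osteoblast markers, COL1A1 was at 300.6 FPKM in DMSO, SPARC at 227 FPKM and VIM at 358 FPKM, while IBSP and TWIST1 were listed at 0 in all 6 libraries and SP7 stayed below 0.2 FPKM. The epithelial keratins KRT8 and KRT18 stood at 88.7 and 124.8 FPKM in DMSO, with CDH1 below 0.2 FPKM throughout, and no blood cell marker passed the limit on low values.

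T5 raised a small set of early response and chemokine transcripts many-fold and lowered a much larger set that included most of the mitotic machinery. With limma and Benjamini-Hochberg adjustment at 0.05, 1929 genes (18.2% of those tested) rose with dose and 3658 (34.5%) fell. The median trend over all genes was -0.29, so the balance depends on the scaling: centring each library on its median gave 4388 rising and 1992 falling genes, and quantile normalization gave 3014 and 2344. Leaving out the 10 µM library lowered the rising count to 1152. On a linear dose axis only 23 genes rose and 545 fell, and 73 of the 96 genes whose trends were tracked through the alternatives lost their call, FOS among them (limma adjusted p = 0.0948).

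The change was gradual and was mostly in place by 5 µM. At 0.5 µM, 128 genes (1.21%) were at least 2-fold above DMSO and 467 (4.41%) at least 2-fold below it, in 1 library against 1. At 2 µM 307 (2.9%) were higher and 1673 (15.8%) lower. At 5 µM these counts were 325 (3.07%) and 2528 (23.8%), at 10 µM 349 (3.29%) and 2763 (26.1%), and at 20 µM 259 (2.44%) and 2806 (26.5%). All folds here are of FPKM + 1. Genes called as falling were at a median log2 ratio to DMSO of -0.15 at 0.5 µM, -0.65 at 2 µM, -1.07 at 5 µM and -1.33 at 20 µM. Those called as rising moved less, with medians of 0.05, 0.30, 0.48 and 0.62 at these doses. Counting the lowest dose from which a gene stayed past 2-fold, 312 genes (2.94%) went down and 52 (0.491%) went up from 0.5 µM onward, against 966 and 73 from 2 µM.

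Most of the immediate early genes tested rose. Of 18 tested, 14 rose and 2 fell, beside 18.2% and 34.5% of all genes. Their median trend was 2.26 beside -0.29 for all genes, and 13 rose under quantile normalization. The list holds 24 symbols, and the limit on mean FPKM included the treated libraries. A member scarce in DMSO could thus pass by rising, which favours risers in this count. FOS, which encodes a subunit of the transcription factor AP-1, was at 1.13 FPKM in DMSO and at 9.41, 50.4, 122, 205 and 254 FPKM from 0.5 to 20 µM. Each step up in dose brought a higher value, and the lowest dose already lay far above the control. The trend was 6.92 ± 0.71 (SE; limma adjusted p = 0.00121). EGR1, a zinc finger activator, read 13.8 FPKM in DMSO and 29.1, 146, 322, 429 and 483 FPKM over the doses (trend 5.39 ± 0.58, limma adjusted p = 0.0013). JUNB, another AP-1 subunit, read 4.42 FPKM and then 14.0, 45.3, 83.1, 176 and 189 FPKM (trend 5.27 ± 0.41, limma adjusted p = 0.000941). Both climbed at every step, like FOS.

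ARC, best known as an activity-regulated gene of neurons, followed the same course up to 10 µM and was lower again at 20 µM. Its FPKM was 7.20 in DMSO and 33.3, 121, 245, 343 and 285 over the doses. IER2, an early response nuclear protein, rose from 16.7 FPKM in DMSO through 31.7, 70.5, 102 and 150.5 to 201 FPKM. FOSB went from 0.0692 FPKM in DMSO to 6.91 FPKM at 20 µM, so it stayed scarce although its trend of 3.13 ± 0.24 passed the test (limma adjusted p = 0.000941). The family was not uniform. FOSL2, also an AP-1 subunit, fell steadily from 29.6 FPKM in DMSO through 24.3, 18.2, 11.7 and 8.16 to 6.79 FPKM (trend -2.08 ± 0.14, limma adjusted p = 0.000869). FOSL1 was at 14.9 FPKM in DMSO and between 4.80 and 8.38 FPKM in the T5 libraries, a trend of -1.04 ± 0.32 (limma adjusted p = 0.0333) that lost its call under median centring (0.354), quantile normalization (0.296) and without any of the DMSO, 2, 5, 10 and 20 µM libraries (0.0534 to 0.171).

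The stretch just before the start of the leading early genes is shown for 3 of the furthest-rising members, chosen as those with the largest trend that hold a searched motif there. The sequences are the 150 bases upstream of the RefSeq start (GRCh38.p14), with capitals marking matches to 4 motifs searched on both strands: the CArG box bound by serum response factor, TGACGT of cyclic AMP response elements, and TTTGAA and CCAAT, which are frequent near the starts of cell cycle genes.
FOS, chr14:75278678-75278827, plus strand: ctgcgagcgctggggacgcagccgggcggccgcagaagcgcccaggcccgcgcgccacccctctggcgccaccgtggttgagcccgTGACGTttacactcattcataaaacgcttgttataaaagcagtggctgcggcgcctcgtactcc
EGR1, chr5:138465329-138465478, plus strand: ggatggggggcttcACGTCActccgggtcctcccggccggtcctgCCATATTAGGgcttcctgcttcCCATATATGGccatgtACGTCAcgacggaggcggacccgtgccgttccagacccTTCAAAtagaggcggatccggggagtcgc
JUNB, chr19:12791336-12791485, plus strand: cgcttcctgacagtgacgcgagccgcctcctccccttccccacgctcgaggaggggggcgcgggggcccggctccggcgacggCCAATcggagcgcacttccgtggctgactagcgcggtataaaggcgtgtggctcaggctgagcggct
EGR1 held 2 CArG boxes, at -105 and -83, with TGACGT, read on the other strand, at -136 and -67. FOS held a TGACGT at -64 in this stretch, and JUNB a CCAAT at -67. Over the full windows of 250 bases before to 50 after the start, 3 of 23 promoters of the 18 listed early genes with an entry, tested or not, held a CArG box (13.0%) and 8 held TGACGT (34.8%). Among all 35116 RefSeq promoters the shares were 1.29% and 7.98%, and among the 11665 promoters of 7977 genes tested they were 1.12% and 10.9%. A match is a description of letters, not evidence of a bound site, and promoters of 1 gene overlap.

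Most of the chemokines and cytokines tested rose, with 7 of 10 rising, none falling and a median trend of 3.07. Among all genes 18.2% rose and 34.5% fell, with a median of -0.29. The list holds 19 symbols, and the limit on mean FPKM again included the treated libraries. Members scarce in DMSO that did not rise were therefore left out, so the count favours risers. CXCL8, which attracts neutrophils, was at 1.60 FPKM in DMSO and at 6.56, 23.4, 65.4, 108 and 158 FPKM over the doses. That is an increase at every step, with a trend of 6.04 ± 0.37 (limma adjusted p = 0.000865). CCL20, a ligand of the receptor CCR6, went from 2.71 FPKM through 8.29, 25.7, 43.2 and 61.6 to 81.7 FPKM (trend 4.45 ± 0.39, limma adjusted p = 0.00104). CXCL3, scarce in DMSO at 0.112 FPKM, reached 16.1 FPKM at 10 µM and 15.3 FPKM at 20 µM. IL11, a cytokine of the IL6 family, barely moved at 0.5 µM (8.93 FPKM in DMSO, 10.48 FPKM at 0.5 µM) and then read 31.5, 71.0, 119.6 and 114 FPKM. CCL2, which attracts monocytes, climbed from 2.91 to 52.0 FPKM. CCL3, which is outside the list, levelled off early, at 16.6, 16.5 and 15.7 FPKM from 5 µM on.

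**Figure D1:**
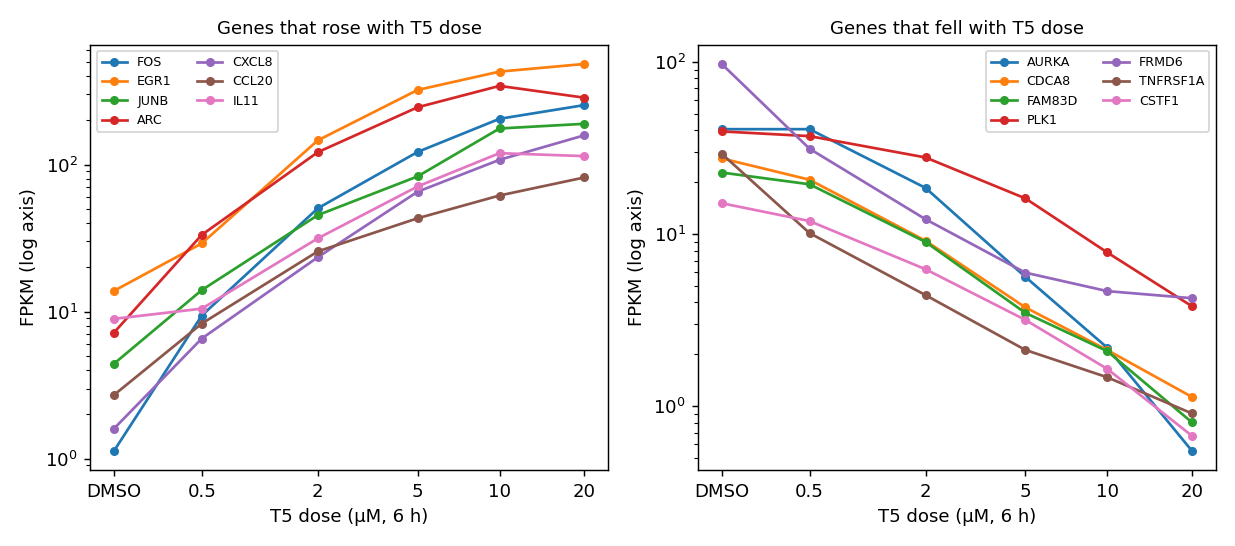
FPKM (log axis) in the DMSO library and the 5 T5 libraries, 1 point per library, for 7 genes that rose (left) and 7 that fell (right). FOS climbs from 1.13 to 254 FPKM and CXCL8 from 1.60 to 158 FPKM, while AURKA drops from 40.5 to 0.549 FPKM.

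The inhibitors that normally trail such a response moved in both directions, in counts near those of all genes. Of 13 MAP kinase phosphatases and feedback inhibitors, 2 rose and 6 fell, beside 18.2% and 34.5% of all genes. Their median was -1.13 beside -0.29. Under quantile normalization 2 rose and 3 fell, beside 3014 and 2344 of all 10600 genes. DUSP2, a nuclear phosphatase of MAP kinases, rose from 3.33 FPKM in DMSO through 6.36, 16.3, 23.4 and 24.4 to 37.4 FPKM (trend 3.07 ± 0.31, limma adjusted p = 0.00117). SPRED2, which restrains RAS signalling to the kinase RAF, fell from 13.2 FPKM through 9.67, 4.23, 2.20 and 1.44 to 1.30 FPKM (trend -2.87 ± 0.27, limma adjusted p = 0.00117). SPRED1, its close relative, went from 7.65 to 1.11 FPKM. DUSP16 had a trend of -1.85 ± 0.51 (limma adjusted p = 0.0236), a call lost without the 10 µM library (0.0602), under median centring (0.058) and under quantile normalization (0.0731), and -0.76 without the DMSO library.

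NF-kB genes were divided. Of 18 tested, 2 rose and 11 fell (median -0.86), beside 18.2% and 34.5% of all genes. Median centring made this 4 and 4, as did quantile normalization. NFKBIZ, a nuclear co-regulator of NF-kB, rose from 3.47 FPKM in DMSO through 7.65, 14.1, 17.7 and 20.5 to 24.3 FPKM. RELA, the main activating subunit, fell from 25.2 FPKM through 18.7, 14.1, 10.4 and 7.88 to 6.63 FPKM (trend -1.80 ± 0.12, limma adjusted p = 0.000865). RELB fell from 4.53 to 0.511 FPKM.

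Death receptor signalling lost transcripts at the lowest doses. Of 11 receptors and adaptors, 7 fell and none rose (median -1.50), beside 34.5% and 18.2% of all genes. Under median centring 6 fell, and under quantile normalization 5. From 0.5 µM onward 4 of the 11 stayed at least 2-fold below DMSO, against 2.94% of all genes. TNFRSF1A, the main receptor for tumour necrosis factor, was at 29.2 FPKM in DMSO and at 10.1, 4.41, 2.12, 1.47 and 0.906 FPKM over the doses. The first dose alone took away most of the transcript, and every further step lowered it (trend -3.86 ± 0.40, limma adjusted p = 0.00121). TRAF2, an adaptor of this receptor, went from 11.1 FPKM to 5.36, 2.21, 1.08, 0.838 and 0.941 FPKM, and RIPK1, its partner kinase, from 4.76 to 0.387 FPKM. FADD, which links death receptors to caspases, fell from 8.99 to 1.04 FPKM. CASP8, the caspase started by these receptors, read 7.41 FPKM in DMSO and 3.18, 1.58, 0.863, 0.984 and 1.26 FPKM over the doses. Its lowest value was at 5 µM, and its trend of -1.90 ± 0.46 (limma adjusted p = 0.0148) was not called without the DMSO library (0.067).

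In the BCL2 family, which sets the threshold of mitochondrial cell death, 2 of 18 rose and 4 fell (median -0.05). Among all genes 18.2% rose and 34.5% fell. Under median centring 8 of the family rose and 3 fell, beside 4388 and 1992 of all 10600 genes, so this shift is also that of all genes. The killers BAK1, from 17.1 to 3.51 FPKM, and BOK, from 26.1 to 5.84 FPKM, fell together with the protector BCL2L1, from 34.0 to 10.7 FPKM. BBC3, a p53 target that promotes cell death, peaked instead, at 1.62 FPKM in DMSO and 3.51, 7.89, 9.46, 8.19 and 5.31 FPKM over the doses. Its trend of 1.42 ± 0.58 did not pass the test (limma adjusted p = 0.0805), and its curvature, described below with the other peaked genes, did. Among 28 p53 targets, 3 rose and 11 fell (median -0.28), near the 18.2% and 34.5% of all genes (median -0.29), and 10 rose and 9 fell under median centring. GADD45A, a growth arrest gene, read 30.9 FPKM in DMSO and 44.0, 80.0, 103, 124 and 90.5 FPKM over the doses, with a trend of 1.78 ± 0.37 (limma adjusted p = 0.00838, and 0.0526 without the DMSO library). PPM1D, a phosphatase that switches p53 off, was higher at 0.5 µM than in DMSO (15.1 against 10.5 FPKM) and then fell through 7.998, 3.92 and 2.99 to 1.28 FPKM. MDM2, the ubiquitin ligase that degrades p53, took the same shape, with 13.2 FPKM in DMSO and 18.1, 12.5, 7.61, 6.16 and 5.14 FPKM over the doses.

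The mitotic list was the clearest group among the falling genes. Of 46 kinases, cyclins and spindle proteins, 33 fell and 1 rose (UBE2S, a ubiquitin-conjugating enzyme, by 0.43 ± 0.12), with a median trend of -1.44. Among all genes 34.5% fell and 18.2% rose, with a median of -0.29. The call of UBE2S was lost under quantile normalization (limma adjusted p = 0.45) and without the 0.5 µM (0.0626) or 10 µM (0.0615) library. Under median centring 25 fell and 6 rose, and under quantile normalization 34 fell and none rose. AURKA, the kinase of the spindle poles, held at 40.5 FPKM in DMSO and 40.5 FPKM at 0.5 µM, and then read 18.5, 5.62, 2.18 and 0.549 FPKM. The loss began only at 2 µM and went on to the highest dose (trend -5.10 ± 0.44, limma adjusted p = 0.00103). CDCA8, which belongs to the chromosomal passenger complex, fell from 27.4 FPKM through 20.6, 9.12, 3.74 and 2.12 to 1.13 FPKM (trend -3.97 ± 0.21, limma adjusted p = 0.000865). FAM83D, a spindle protein, went from 22.7 to 0.804 FPKM and TTK, a kinase of the spindle checkpoint, from 14.8 to 0.677 FPKM. CCNF, a cyclin and part of a ubiquitin ligase, went from 21.8 to 1.61 FPKM. HJURP, the chaperone of the centromere histone, which is outside the list, fell from 18.7 to 0.787 FPKM. Counted by dose, 19 of the 46 first stayed past 2-fold down from 2 µM, beside 966 of all 10600 genes. From 0.5 µM it was 2 of the 46, near the 2.94% of all genes. In bulk RNA, fewer cells of a kind and less RNA per cell cannot be told apart, so these values do not show whether fewer cells were near division.

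Promoter stretches are shown for the 3 mitotic genes with the largest falls among those with an entry and a searched motif. AURKA, FAM83D and TTK have no entry in the promoter table. As above, they are the 150 bases upstream of the RefSeq start on GRCh38.p14 with motif matches in capitals.
CDCA8, chr1:37692366-37692515, plus strand: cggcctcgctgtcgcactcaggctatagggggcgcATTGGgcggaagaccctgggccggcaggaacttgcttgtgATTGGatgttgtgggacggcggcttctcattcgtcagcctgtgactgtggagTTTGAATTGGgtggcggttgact
CCNF, chr16:2429297-2429446, plus strand: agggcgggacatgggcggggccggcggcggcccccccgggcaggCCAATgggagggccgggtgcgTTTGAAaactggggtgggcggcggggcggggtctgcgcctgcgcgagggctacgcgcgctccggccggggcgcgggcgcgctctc
KIF11, chr10:92592980-92593129, plus strand: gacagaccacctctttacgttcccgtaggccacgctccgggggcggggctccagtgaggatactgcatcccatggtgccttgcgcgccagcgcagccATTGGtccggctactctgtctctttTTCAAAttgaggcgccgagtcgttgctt
TTTGAA stood at -23 in CDCA8, -85 in CCNF and -28 in KIF11, and each stretch held CCAAT on either strand as well. In CDCA8 the TTTGAA runs into the last of 3 CCAAT matches. Over the full windows, 28 of 48 promoters of 36 mitotic genes held TTTGAA (58.3%) and 37 held CCAAT (77.1%), against 15.2% and 34.6% of all promoters and 9.92% and 34.4% of those of genes tested. None of the 48 held a CArG box. KIF11, a spindle motor, fell from 27.9 FPKM in DMSO through 23.6, 10.3, 5.32 and 3.59 to 2.59 FPKM (trend -3.27 ± 0.23, limma adjusted p = 0.000869).

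Of 42 genes of the G1/S transition and of replication, 6 rose and 16 fell (median -0.33), near the 18.2% and 34.5% of all genes. Under median centring 17 rose and 7 fell, beside 4388 and 1992 of all 10600 genes. E2F3, an activator of S phase genes, was cut early, from 7.18 FPKM in DMSO to 2.97, 1.19, 0.668, 0.666 and 0.613 FPKM. ORC1, of the origin recognition complex, stayed at 9.83 FPKM at 0.5 µM beside 9.52 FPKM in DMSO and then fell through 6.95, 4.38 and 2.63 to 1.34 FPKM.

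Other steep falls belonged to genes of varied function. FRMD6, an upstream regulator of the Hippo pathway, stood at 97.0 FPKM in DMSO and at 31.2, 12.2, 5.95, 4.65 and 4.23 FPKM over the doses. Most of that drop lay between DMSO and 2 µM, and the last steps were small (trend -4.21 ± 0.53, limma adjusted p = 0.00187). TMEM60, a membrane protein, fell from 16.2 FPKM through 7.10, 2.62, 0.782 and 0.328 to 0.231 FPKM, and GOLPH3, a Golgi protein, from 27.7 to 1.18 FPKM. ZBED5, derived from a transposase, went from 13.5 to 0.151 FPKM and CEBPZ, a nucleolar protein, from 29.01 to 1.96 FPKM. TTC4, a co-chaperone, went from 14.2 to 0.506 FPKM and PTRH2, a peptidyl-tRNA hydrolase of mitochondria, from 23.9 to 1.63 FPKM.

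The machinery that cleaves and polyadenylates transcripts was lower as a list, with 2 of 20 rising and 9 falling (median -0.99). Among all genes 18.2% rose and 34.5% fell (median -0.29). Under median centring 5 of the list rose and 8 fell. CSTF1, part of the cleavage stimulation factor, read 15.1 FPKM in DMSO and 11.9, 6.23, 3.17, 1.64 and 0.672 FPKM over the doses, dropping at each step (trend -3.37 ± 0.21, limma adjusted p = 0.000865). CSTF2T, another subunit of this factor, fell from 9.87 to 0.522 FPKM. The 2 that rose were CPSF1, the largest subunit of the factor that binds the poly(A) signal, from 32.3 to 54.0 FPKM, and PABPN1, the nuclear poly(A) binding protein, from 15.4 to 23.2 FPKM. WDR33, which reads the poly(A) signal, was lowest at 5 µM, at 12.8 FPKM in DMSO and 6.12, 2.71, 1.51, 1.56 and 1.87 FPKM over the doses. CLP1 and RBBP6 were above DMSO at low doses and below it at 20 µM. CLP1, a subunit of cleavage factor II, read 7.40 FPKM in DMSO and 12.1, 13.8, 8.30, 3.91 and 1.25 FPKM over the doses. RBBP6, a ubiquitin ligase of the cleavage complex, read 6.12 FPKM and then 9.30, 9.69, 7.12, 5.20 and 2.37 FPKM. Neither had a called trend (limma adjusted p = 0.0622 and 0.111).

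Transcription and RNA processing factors around this machinery fell more often than they rose, beside 34.5% falling and 18.2% rising among all genes. Among 33 transcription kinases and elongation factors 19 fell and 1 rose (median -1.03), and 10 fell and 3 rose under median centring. IWS1, a partner of the elongating polymerase, went from 14.4 FPKM through 12.5, 5.85, 2.52 and 1.56 to 0.9999 FPKM, and MEPCE, which caps the 7SK RNA, from 17.5 to 2.11 FPKM. CDK8, a kinase of the Mediator complex, fell from 9.37 to 1.05 FPKM. CDK7, the kinase of TFIIH, and LEO1, of the PAF complex, were first higher than DMSO at 0.5 µM (34.6 against 26.2 FPKM and 14.2 against 9.28 FPKM) and ended at 2.96 and 0.670 FPKM. Of 21 SR proteins and their kinases, which steer splicing, 13 fell and none rose (median -0.93), and 8 fell and 2 rose under median centring. SRSF4 fell from 17.3 to 0.895 FPKM, while SRSF3 held its level until 2 µM, with 78.2 FPKM in DMSO and 83.1, 67.6, 44.2, 26.6 and 14.2 FPKM over the doses. The nuclear exosome and its adaptors had 16 of 24 falling and 1 rising, and 10 and 5 under median centring. The Integrator had 6 of 14 falling and 2 rising, and 4 and 3 under median centring. The deadenylases and AU-rich element binders had 13 of 29 falling and 2 rising, and 10 and 8 under median centring. The 2 risers among these were ZFP36, from 1.86 to 28.7 FPKM, and ZFP36L1, from 45.9 to 207 FPKM, which bring mRNA with AU-rich elements to decay. CNOT2, a scaffold of the main deadenylase, fell from 13.6 to 1.66 FPKM, and PUM2, a 3′ end binding repressor, from 29.2 to 5.18 FPKM.

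Signalling lists linked to growth and differentiation followed, beside 34.5% falling and 18.2% rising among all genes. Of 28 TGF-beta and BMP genes, 15 fell and 2 rose (median -1.26), and 12 fell and 4 rose under median centring. TGFBR2, a receptor of TGF-beta, fell from 20.3 FPKM through 15.6, 8.04, 4.47 and 3.60 to 3.44 FPKM, and BMPR1A, a receptor of BMP, from 9.86 to 1.47 FPKM with its lowest value of 1.26 FPKM at 10 µM. TGIF1, a co-repressor of SMAD proteins, held until 2 µM (8.60 FPKM in DMSO, 7.33 FPKM at 2 µM) and reached 0.913 FPKM at 20 µM. In the YAP and TEAD pathway 12 of 26 fell and 3 rose (median -0.66), but 9 fell and 9 rose under median centring. The 3 that rose were CTGF, CYR61 and ANKRD1. CTGF went from 104 FPKM in DMSO to 367 FPKM at 5 µM and 276 FPKM at 20 µM. CYR61 went from 126 to 312 FPKM and ANKRD1 from 76.1 to 187 FPKM. CTGF lost its call under quantile normalization (limma adjusted p = 0.111) and without the DMSO (0.281), 0.5 µM (0.0887), 5 µM (0.0638) or 10 µM (0.1) library. The 3 largest falls were in FRMD6, AMOTL2 (24.7 to 1.60 FPKM) and AJUBA (38.9 to 4.95 FPKM). Targets and regulators of the pathway were not counted apart.

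Stress and metabolic lists were split, beside 18.2% rising and 34.5% falling among all genes. The counts for cholesterol, integrated stress response and mitochondrial import genes lay near these shares. Median centring made 4388 of all 10600 genes rise and 1992 fall, and quantile normalization 3014 and 2344. A shift of a list toward rising under median centring is therefore also the shift of all genes. Endoplasmic reticulum stress genes had 6 of 18 rising and 4 falling (median 0.22), and 13 rising and 3 falling under median centring. XBP1, a regulator of this response, fell from 28.7 to 2.73 FPKM, DNAJB9 from 4.32 to 0.558 FPKM and HERPUD1 from 25.5 to 5.16 FPKM, while CRELD2, a secreted chaperone, rose from 29.8 to 60.9 FPKM. The trend of HERPUD1, -1.89 ± 0.38, was -1.20 without the 20 µM library and was not called under median centring (limma adjusted p = 0.0518). The NRF2 list had 7 of 21 rising and 7 falling (median 0.26), and 12 and 4 under median centring, with GCLC, which makes glutathione, falling from 12.3 to 0.630 FPKM, KEAP1, the sensor that holds NRF2, from 13.6 to 1.16 FPKM, and NFE2L2, which encodes NRF2, from 16 to 2.10 FPKM. Of 27 cholesterol genes 4 rose and 8 fell (median -0.10), but 10 rose and 7 fell under median centring. SQLE, an enzyme of this pathway, went from 26.6 FPKM in DMSO to 37.9 FPKM at 0.5 µM and 4.18 FPKM at 20 µM. Hypoxia-responsive genes had 6 of 25 rising and 6 falling, and 12 and 2 under median centring, with BHLHE40, also a clock repressor, up from 17.8 to 73.3 FPKM and SLC2A1, a glucose transporter, down from 28.8 to 5.03 FPKM. Heat shock proteins had 6 of 20 rising and 7 falling, against 9 and 1 under median centring and 1 and 7 under quantile normalization. Integrated stress response genes had 2 of 21 rising and 8 falling, but 6 and 4 under median centring. Mitochondrial import proteins had 2 of 21 rising and 8 falling, but 10 and 5 under median centring. TIMM9, a chaperone between the mitochondrial membranes, fell from 31.2 FPKM through 12.01, 5.50, 3.39 and 2.44 to 2.42 FPKM, and TIMM22, a channel of the inner membrane, from 10.1 to 0.812 FPKM.

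Polyamine genes rose more often than they fell, 6 of 10 against 1 (median 0.59), 5 against 1 under quantile normalization. For this and the lists below, 18.2% of all genes rose and 34.5% fell. Under median centring 4388 of all 10600 genes rose and 1992 fell. SAT1, which acetylates polyamines for their breakdown and export, was at 1.73 FPKM in DMSO and at 10.1, 42.3, 67.3, 73.3 and 52.0 FPKM over the doses. It was the largest mover of the list, and its top value was at 10 µM. The trend was 4.36 ± 0.95 (limma adjusted p = 0.0102) and 2.78 without the DMSO library, where it was no longer called (0.0511). Of 74 cytosolic ribosomal proteins, whose mRNA is long-lived, 62 rose and 1 fell with a median of 0.60. Quantile normalization changed that to 12 rising and 13 falling with a median of -0.00, so no direction can be given for them. RPS2 read 476 FPKM in DMSO and 537, 697, 894, 982 and 881 FPKM over the doses, while RPL13A, the member that fell, went from 119.8 to 70.9 FPKM, with a trend near 0 (0.04) under median centring. Many ribosomal protein genes have near-identical pseudogenes that can share their reads. MYC, whose network list had 1 of 10 rising and 4 falling but 4 and 2 under median centring, read 30.6 FPKM in DMSO and 48.1, 93.2, 127, 122 and 88.5 FPKM over the doses. Its trend of 1.73 ± 0.47 (limma adjusted p = 0.0223) was not called without the DMSO (0.144), 0.5 µM (0.0708) or 10 µM (0.0655) library. TOP1, which relaxes supercoiled DNA, was at 31.0 FPKM in DMSO, 41.0 FPKM at 0.5 µM and 22.1 FPKM at 20 µM, a trend of -0.76 ± 0.23 (limma adjusted p = 0.0298) that was not called under median centring (0.775) or without the 0.5, 5, 10 or 20 µM library (0.0515 to 0.0858). Of 17 circadian clock genes 10 fell and 1 rose, but 5 fell and 4 rose under median centring. Of 10 interferon genes 4 rose and 2 fell, and 8 rose and none fell under median centring. The other lists gave 4 of 12 replication-dependent histones rising and 1 falling, 6 and 1 under median centring, and 4 of 8 topoisomerases falling with none rising, of which median centring left 2 falling and 3 rising.

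**Figure D2:**
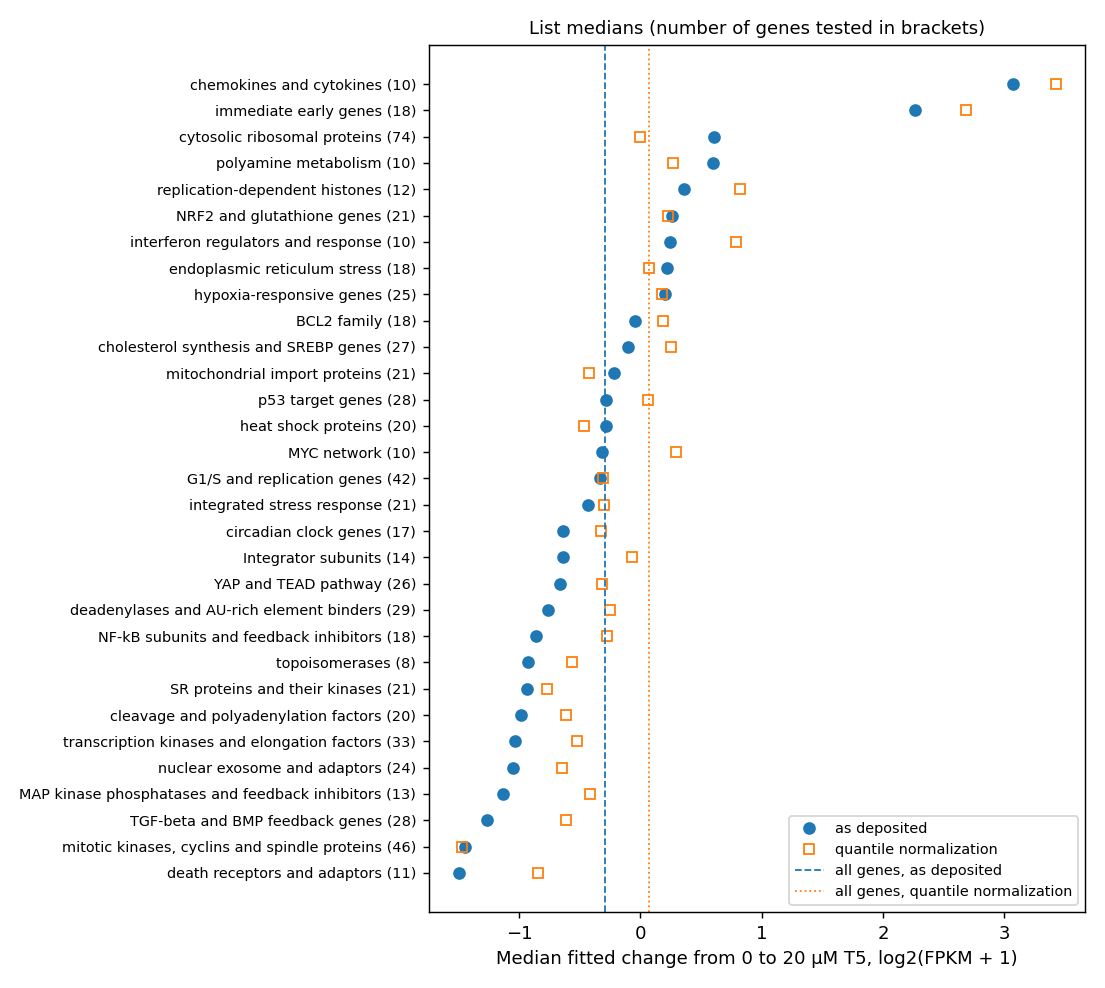
Median fitted change from 0 to 20 µM T5 on the log2(FPKM + 1) scale for each gene list, with FPKM as deposited (filled circles) and after quantile normalization (open squares), and the number of genes tested in brackets. Lines mark all genes tested, at -0.29 and 0.07; chemokines (3.07) and immediate early genes (2.26) lie far to the right of both, death receptors (-1.50) and mitotic genes (-1.44) to the left.

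Many transcripts did not follow a straight line over the dose scale. The curvature was tested as a bow, the fitted value at the middle of the dose scale minus the line between the fitted ends: 1124 genes (10.6%) had a positive bow and 2693 (25.4%) a negative one. A positive bow marks a peak, an early plateau or a late fall, a negative one a dip, an early loss or a late rise. Of the genes with no called trend, 637 had a positive bow and 1661 a negative one. Of the falling genes, 1012 had a negative bow and 282 a positive one, that is, they held their level first and fell late. These counts lean on single libraries more than the trends do. Without the 2 µM library they became 224 and 123, without the 20 µM library 471 and 872, and without the 10 µM library 732 and 1613. Without the 5 µM library the negative bows numbered 1483. Median centring gave 1991 positive and 1314 negative bows.

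The largest bow outside uncertain symbols was that of HEXIM1, the inhibitor of the elongation kinase P-TEFb. It read 8.44 FPKM in DMSO and 38.7, 61.0, 51.5, 31.7 and 7.24 FPKM over the doses. The transcript was several-fold up at the lowest dose, highest at 2 µM and back at the control level at 20 µM. Its bow was 2.91 ± 0.18 (limma adjusted p = 0.00204) and its trend -0.17 ± 1.31 (0.923), and the 20 µM and DMSO values alone were close. RGS2, which damps G protein signalling, ran from 2.75 FPKM through 9.93, 18.7, 17.2 and 11.6 to 2.65 FPKM. BAMBI, a decoy receptor of TGF-beta, ran from 1.23 FPKM through 6.07, 9.24, 8.54 and 5.36 to 0.965 FPKM. BTG1, an antiproliferative partner of the deadenylase, ran from 1.54 FPKM through 5.86, 10.1, 8.92 and 5.80 to 1.40 FPKM. All 4 had their highest value at 2 µM, with bows of 2.23 to 2.91. They also meet the peak rule given below, which itself requires a 20 µM value at or below DMSO. Their log2 ratios at 20 µM were small, from -0.04 for RGS2 to -0.20 for HEXIM1, in 1 library against 1.

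GPER1, a membrane receptor for oestrogen, and C3orf58, a secreted kinase-like protein, had bows of 2.43 ± 0.17 and 2.42 ± 0.20 but stayed above DMSO at 20 µM, GPER1 at 4.83 against 0.916 FPKM and C3orf58 at 6.84 against 4.26 FPKM. RASL11B, a small GTPase, read 1.09 FPKM in DMSO, 5.83 FPKM at 2 µM and 0.814 FPKM at 20 µM. CDKN1A, the p53 target that arrests the cell cycle, read 31.6 FPKM in DMSO and 41.8, 78.2, 87.0, 62.6 and 31.9 FPKM over the doses. Its peak lay at 5 µM and its last value matched the first, with a bow of 1.37 ± 0.19 (limma adjusted p = 0.00686) that was not called without the 2 µM (0.0585) or the 20 µM library (0.0663). ATF3, an early stress factor, peaked between 2 and 5 µM, at 26.6 and 27.0 FPKM beside 4.64 FPKM in DMSO. SPRY2, a feedback inhibitor of growth factor signalling, went from 1.25 FPKM to 12.5 FPKM at 5 µM and 5.36 FPKM at 20 µM. The bows of BBC3 (1.24 ± 0.12) and CLP1 (1.59 ± 0.11) were of this kind too, that of BBC3 losing its call without the 2 µM library (0.0506), as did those of RBBP6 (0.0525), AMD1 (0.0571) and LEO1 (0.0682). AMD1, which makes a precursor of polyamines, read 23.2 FPKM in DMSO, 40.1 FPKM at 0.5 µM and 8.86 FPKM at 20 µM.

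By a plain rule, at least 2-fold above DMSO at 0.5, 2, 5 or 10 µM and at or below DMSO at 20 µM, 71 genes (0.67%) peaked. The peak was at 0.5 µM in 22, at 2 µM in 37, at 5 µM in 9 and at 10 µM in 3. Small nuclear, nucleolar and micro RNA symbols made up 19 of the 71, and such short RNAs are poorly estimated in FPKM and are not described. HNRNPR also met the rule but was listed at 0 FPKM in DMSO, at 0.5 µM and at 20 µM, where a failed estimate is possible, and NME1-NME2, with a large positive bow, is a readthrough transcript that shares its reads with 2 genes.

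**Figure D3:**
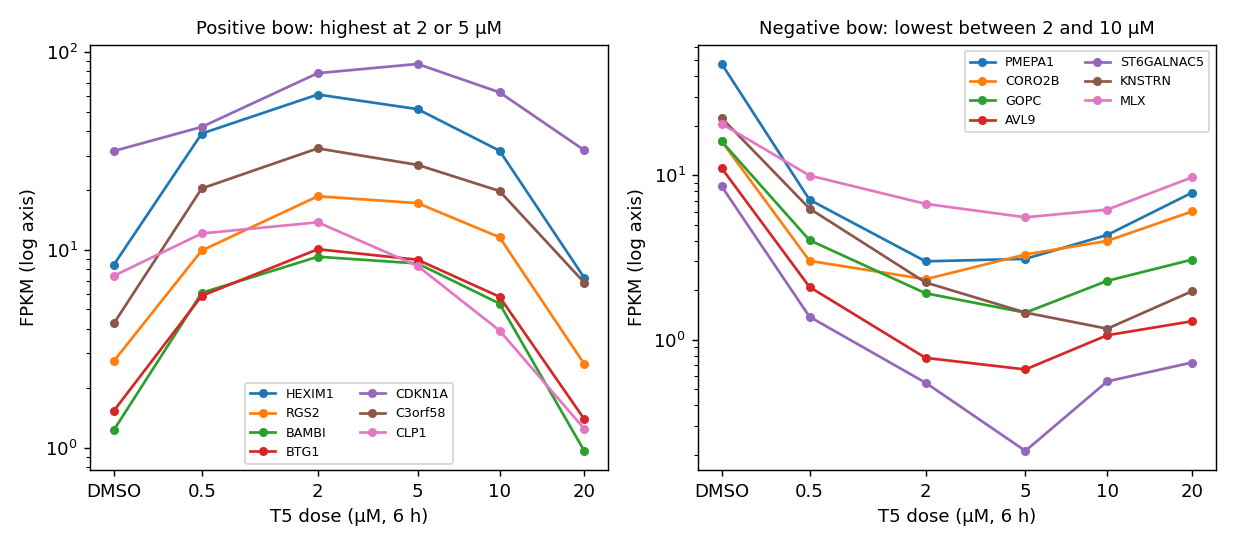
FPKM (log axis) in DMSO and at each T5 dose, 1 point per library, for 7 genes with a positive bow (left) and 7 with a negative bow (right). HEXIM1 goes from 8.44 to 61.0 FPKM at 2 µM and returns to 7.24 FPKM at 20 µM, and PMEPA1 goes from 47.3 to 2.99 FPKM at 2 µM and is back at 7.81 FPKM at 20 µM.

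Dips were the mirror image, with an abrupt loss at the lowest dose and a partial return. PMEPA1, a TGF-beta target that limits SMAD signalling, read 47.3 FPKM in DMSO and 7.08, 2.99, 3.10, 4.33 and 7.81 FPKM over the doses. The 0.5 µM library was already far below DMSO, the floor lay at 2 and 5 µM, and 20 µM stood above all but the control. The bow was -2.45 ± 0.29 (limma adjusted p = 0.00501), and the trend of -2.06 ± 1.14 was not called (0.172). CORO2B, an actin-binding coronin, dipped from 16.04 FPKM in DMSO to 3.01 and 2.33 FPKM and returned through 3.29 and 3.98 to 6.01 FPKM, a bow of -1.67 ± 0.37 (limma adjusted p = 0.022) that was -0.69 without the DMSO library and not called without the 2 µM (0.112), 10 µM (0.0505) or 20 µM (0.0548) library. GOPC, a Golgi scaffold, went from 16 FPKM to 1.46 FPKM at 5 µM and 3.06 FPKM at 20 µM.

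AVL9, of the secretory pathway, went from 11.01 FPKM to 0.659 FPKM at 5 µM and 1.29 FPKM at 20 µM, and ST6GALNAC5, a sialyltransferase, from 8.53 to 0.211 FPKM at 5 µM and 0.726 FPKM at 20 µM. The dips of PMEPA1, GOPC, AVL9 and ST6GALNAC5 were not called without the 2 µM library (limma adjusted p = 0.0517, 0.0532, 0.0708 and 0.0659), and without DMSO those of AVL9 and ST6GALNAC5 shrank to -1.004 and -0.94. KNSTRN, a kinetochore protein, combined a bow of -1.55 ± 0.13 with a called trend (-2.94 ± 0.72, limma adjusted p = 0.0152, and 0.066 without DMSO). It read 22.2 FPKM in DMSO and 6.26, 2.23, 1.46, 1.17 and 1.97 FPKM over the doses. MLX, a partner of MYC-like factors, also dipped and returned in part, from 20.5 FPKM in DMSO to 5.54 FPKM at 5 µM and 9.69 FPKM at 20 µM. By list, negative bows numbered 7 of 11 death receptor genes, 11 of 28 TGF-beta and BMP genes and 10 of 26 YAP pathway genes beside 25.4% of all genes, and positive bows 11 of 18 immediate early genes beside 10.6%. Scarce early genes could pass the limit on mean FPKM by being high with T5, which favours positive bows in this count.

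In the values as deposited, the most compact genes rose more often and fell less often than the others. Matching 94.7% of the tested genes by symbol to GENCODE 29 and dividing them into 5 equal bins by genomic span, 31.5% of the most compact bin (median 5.3 kb) rose and 21.5% fell. In the next bins, with medians of 15.4, 31.4, 61.0 and 152 kb, 20.6%, 15.9%, 10.9% and 12.7% rose and 36.2%, 39.1%, 41.4% and 35.6% fell. The median trend was 0.22 in the first bin and between -0.27 and -0.56 in the others. Bins by number of exons differed less, with 15.4% to 22.4% rising and 33.1% to 37.4% falling. Of the early genes, FOS spans 3.46 kb, EGR1 3.83 kb and JUNB 1.82 kb, whereas ANKRD30BL, which also rose, spans 110 kb. Steep fallers were of varied span, with FRMD6 at 242 kb. TMEM60 spans 4.85 kb, TNFRSF1A 13.4 kb, CDCA8 17.3 kb and AURKA 22.95 kb. Expression level and function also differ between the bins, and their part in the pattern was not tested. The bins were not counted under median centring or quantile normalization, which change the balance of rising and falling genes.

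**Figure D4:**
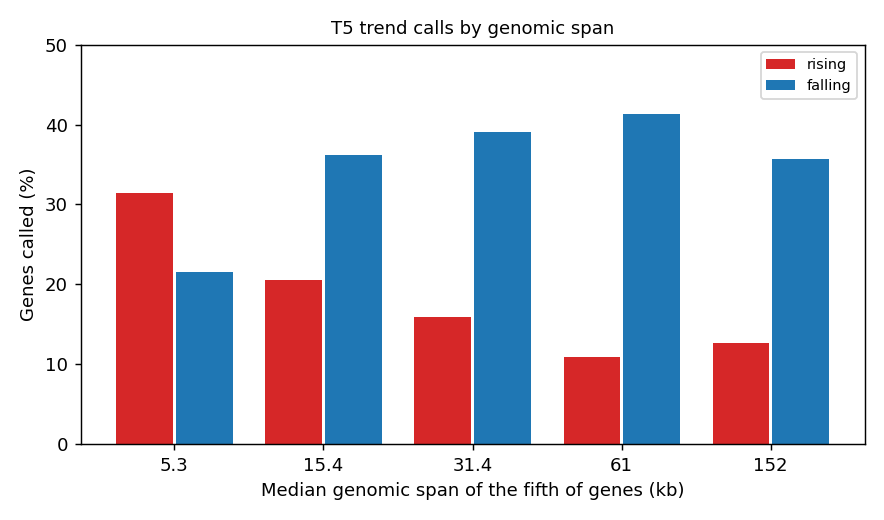
Percentage of genes called as rising (red) or falling (blue) with T5 dose, from FPKM as deposited, in 5 equal bins of genomic span. Bins are labelled by their median span in kb. The rising share drops from 31.5% in the most compact bin to 10.9% in the fourth, and the falling share goes from 21.5% to 41.4%. In the bin of the longest genes the shares are 12.7% and 35.6%.

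Against T4, the other APA modulator, T5 at the same doses had taller early responses and deeper mitotic losses. The mean difference over the 5 shared doses, with dose as a block and without the DMSO library, was called as higher with T5 in 641 genes (6.05%) and as lower in 2807 (26.5%). This split is a matter of scaling as well: median centring gave 2622 higher and 1166 lower, quantile normalization 1064 and 1339. Without the 2 µM pair the counts were 294 and 1647, without the 5 µM pair 298 and 1655, and without the 20 µM pair 349 genes were higher. FOS was 3.88, 24.96, 61.7, 113 and 154 FPKM with T4 where T5 gave 9.41 to 254 FPKM, a difference of 0.92 ± 0.05 (limma adjusted p = 0.00304). T5 was above T4 at each of the 5 doses.

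SAT1 was 4.40, 23.1, 38.3, 39.9 and 25.9 FPKM with T4 and lower than with T5 at every dose (0.90 ± 0.04, limma adjusted p = 0.00153). CXCL3 differed by 1.03 ± 0.10, IL11 by 1.04 ± 0.17 and FZD8, a Wnt receptor, by 0.92 ± 0.15. NPPC, a natriuretic peptide listed at 0 in DMSO, reached 8.41 FPKM with 10 µM T5 and 1.18 FPKM with 10 µM T4. Its difference of 1.09 ± 0.26 (limma adjusted p = 0.0206) was not called without the 20 µM pair (0.058) or with no filter on low values (0.081). Of the 18 immediate early genes 11 were higher with T5 and none lower, and of the 10 chemokines and cytokines 6 were higher and none lower. Among all genes 6.05% were higher and 26.5% lower. The counts stayed at 11 and 6 under quantile normalization. The limit on mean FPKM included the T5 libraries, so a scarce member could enter these lists by being high with T5. These counts therefore favour genes higher with T5.

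On the falling side, AURKA was 44.3, 32.6, 12.4, 4.54 and 1.81 FPKM with T4, above the T5 value at each dose (-0.72 ± 0.12, limma adjusted p = 0.00745). PLK1, a kinase of mitotic entry and exit, was 41.3, 39.0, 27.1, 17.1 and 9.47 FPKM with T4 and 37.0, 27.8, 16.1, 7.80 and 3.80 FPKM with T5 (-0.70 ± 0.14, limma adjusted p = 0.0113). Of the 46 mitotic genes 36 were lower with T5 and none higher, beside 26.5% and 6.05% of all genes. Under quantile normalization 33 were lower. FRMD6 (-0.78 ± 0.06), ATXN7L3B (-0.75 ± 0.11) and SCHIP1 (-0.68 ± 0.14) were lower as well, and SLC25A37, a mitochondrial iron importer, by -0.68 ± 0.19 (limma adjusted p = 0.0358), a call lost under quantile normalization (0.0856) and without the 5, 10 or 20 µM pair (0.0854 to 0.0969). HEXIM1 had its peak with T4 as well, where it read 24.1, 47.4, 38.5, 18.1 and 6.93 FPKM, with its top at 2 µM under both compounds and T5 higher on average by 0.45 ± 0.10 (limma adjusted p = 0.0155). With no filter on low values, the differences of PLK1, SCHIP1, SLC25A37 and HEXIM1 were not called (limma adjusted p = 0.0511, 0.0519, 0.117 and 0.0623). For CSTF1 the difference of -0.19 ± 0.07 did not pass the test (0.0799), which does not show that the compounds act alike on it.

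Against CPT, the third compound, the differences were broader, with 2645 genes (25%) higher with T5 and 3984 (37.6%) lower. Median centring turned this into 3986 higher and 2521 lower, and quantile normalization into 3621 and 3058. FOS stayed between 4.26 and 33.5 FPKM with CPT, a difference of 2.21 ± 0.29 (limma adjusted p = 0.000941), and EGR1 between 13.0 and 57.5 FPKM (2.38 ± 0.28, 0.00064). SAT1 and CXCL8 were above their DMSO values with both compounds at every dose, and their differences of -0.28 ± 0.11 and 0.27 ± 0.35 were not called (limma adjusted p = 0.0695 and 0.523), although SAT1 passed without the 5 µM (0.0464) or 10 µM pair (0.0432). The CXCL8 difference was -0.08 without the 20 µM pair and 0.53 without the 2 µM pair.

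A pair of long genes was far lower with CPT than with T5. GPHN, a scaffold of inhibitory synapses that spans 674 kb, was 15.5, 8.73, 5.74, 5.53 and 5.20 FPKM with T5 and 0.658 to 1.07 FPKM with CPT, beside 20.7 FPKM in DMSO. EXT1, a heparan sulphate polymerase that spans 317 kb, was 28.6 to 71.0 FPKM with T5 and 3.22 to 6.88 FPKM with CPT. The values of the compounds did not overlap for GPHN (2.20 ± 0.25, limma adjusted p = 0.000626) or EXT1 (2.76 ± 0.24, limma adjusted p = 0.000288). These genes were picked by the size of the difference, and how span bears on the comparison was not tested. EID3 was at 0.0812 FPKM in DMSO, reached 9.62 FPKM with 2 µM T5 and stayed at or below 0.323 FPKM with CPT. KRTAP2-3 was higher by 3.39 ± 0.35, but near-identical copies can share its reads.

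Genes lower with T5 than with CPT were led by a receptor. S1PR3, a receptor for sphingosine phosphate, was 0.590 to 1.23 FPKM with T5 and 13.2 to 18.9 FPKM with CPT, beside 3.695 FPKM in DMSO. TMEM177 was 0.803 to 6.59 FPKM with T5 and 21.6 to 33.6 FPKM with CPT, beside 13.01 FPKM in DMSO. Both were thus below DMSO with T5 and above it with CPT. FAM220A, FAM46C, EXO5 and WIBG differed by -3.05, -2.87, -2.77 and -2.73. CDKN1A stood at 127.5 FPKM with the lowest dose of CPT and at 137 to 142 FPKM with the others, above every T5 value (-1.27 ± 0.20, limma adjusted p = 0.00189). Of the 28 p53 targets 22 were lower with T5 and 1 higher, beside 37.6% and 25% of all genes. Of 18 immediate early genes 10 were higher with T5 and 5 lower, the lower ones including FOSB (-0.65 ± 0.07) and FOSL1 (-2.54 ± 0.21). The limit on mean FPKM, which included all these libraries, bears on this count as well. TNFRSF1A kept 34.0, 21.9, 12.8, 9.49 and 9.88 FPKM with CPT and was lower with T5 at each dose (-2.10 ± 0.12, limma adjusted p = 0.00014).

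**Figure D5:**
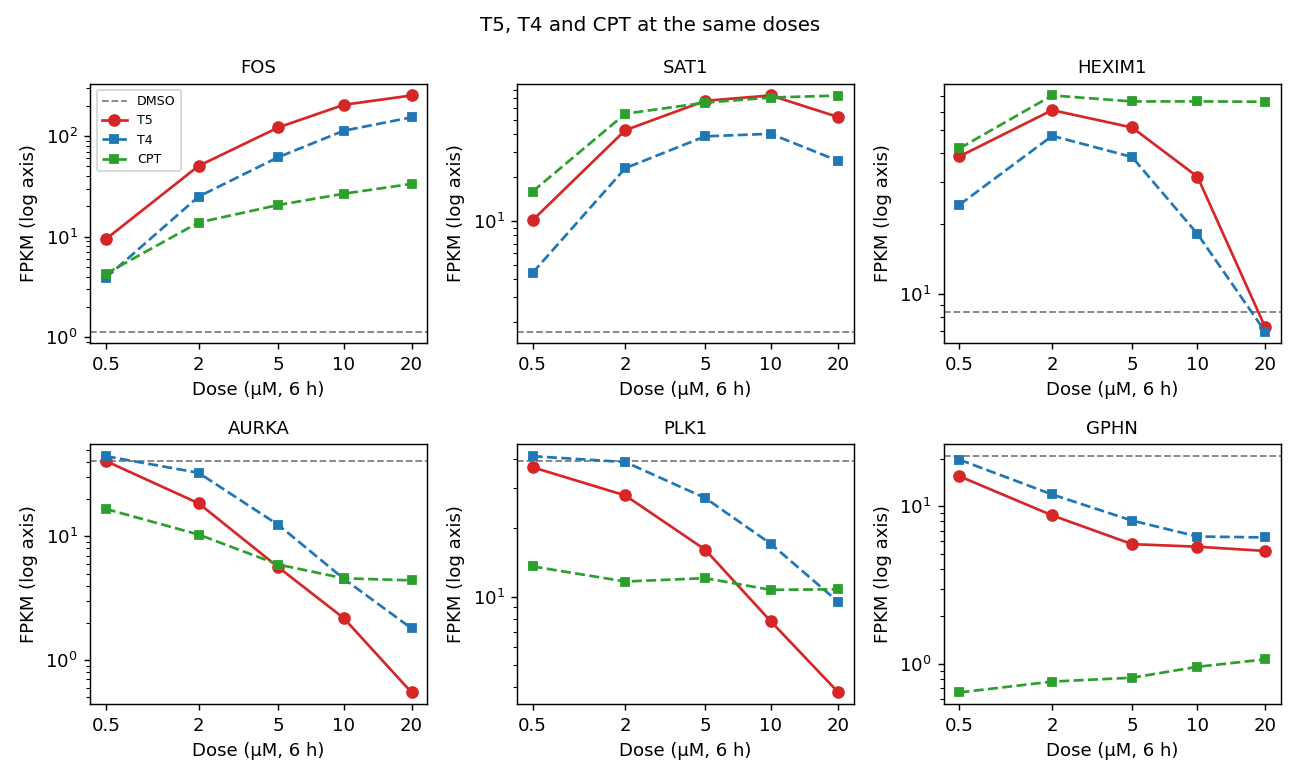
FPKM (log axis) at 0.5 to 20 µM of T5 (red circles), T4 (blue squares) and CPT (green squares), 1 library per point, with the DMSO library as a dashed line. T5 lies above T4 at every dose for FOS and SAT1 and below it for AURKA and PLK1, HEXIM1 peaks with T5 and T4, and GPHN is lowest with CPT at each dose.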

How the data were processed

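The values are FPKM deposited by the authors in a matrix of genes by libraries, per the file headers. The submitters' processing notes name GSNAP, Cufflinks, hg19 and GRCh37 without roles; their versions, the annotation and the strand setting were not found there or in the labels. After 2 inner header lines, 1 incomplete line and 220 repeated lines were dropped, 25270 genes remained, 4531 of them at 0 in every library. Genes with a mean of at least 1 FPKM over 16 libraries were fitted as log2(FPKM + 1) with limma 3.58.1 in R 4.3.3 (files read by data.table, version 1.17.8), with moderated variances and a mean-variance trend, 2-sided, Benjamini-Hochberg adjusted at 0.05, and the scripts were tested on simulated data. Trend and curvature used DMSO and the 5 T5 libraries; T5 against T4 or CPT used the 5 matched doses with dose as a block and no DMSO. Total depth is unknown, so no counting intervals are given; relative depth came from the steps of values up to 0.2 FPKM. Plots were drawn with matplotlib 3.10.9, tables with pandas 2.3.3 and numpy 2.4.6, under Python 3.11.15.

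Named genes were those with the 12 largest rising and 12 largest falling trends and 1 sign of ratio at all 5 doses, the 6 largest bows each way, the 6 higher and 6 lower in each compound comparison, the 6 highest peaked genes, for every list the 5 members that moved furthest, the cleavage factors, and TOP1, MDM2 and CDKN1A; small RNAs and genes without a symbol were passed over. Not all are described, and further list members were picked after their values were seen. Members, lists and tests were chosen with earlier results of these data known. Alternatives were a pseudocount of 0.1, no filter, median centring, quantile normalization, a linear dose scale, no variance trend and leaving out each dose.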

Additional observations from a re-analysis of the deposited data

How the results depend on the processing

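Median centring gave 4388 rising and 1992 falling genes, 1991 positive and 1314 negative bows, 2622 genes higher and 1166 lower than with T4, and 3986 higher and 2521 lower than with CPT. Quantile normalization gave 3014 rising and 2344 falling genes, 1523 negative bows, and 1064 genes higher and 1339 lower than with T4. The linear dose scale gave 23 rising and 545 falling genes, and with no filter 397 genes were higher than with T4. Leaving out each library in turn gave 1152 to 2622 rising and 2618 to 3678 falling genes, 224 to 1480 positive and 123 to 3752 negative bows, 294 to 756 genes higher and 1647 to 2674 lower than with T4, and 2196 to 2606 higher and 3323 to 4125 lower than with CPT. The cause of these shifts was not tested. Of the genes whose tests were tracked, 22 of 96 trends, 13 of 26 bows, 10 of 15 differences from T4 and 18 of 20 from CPT kept their direction and their side of the threshold under every alternative run, and the linear dose scale alone ended 73 trend calls. The trend of RPL13A turned to 0.0433 under median centring, and the uncalled difference of CXCL8 from CPT ran from -0.0846 to 0.53 when single dose pairs were left out.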
